A study of Mus musculus with 7 samples.

Results

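The immediate early genes followed here are 10 genes listed by symbol and measured in single-cell RNA libraries of mouse bone marrow progenitors: Fos, Fosb, Jun, Junb, Egr1, Ier2, Atf3, Nr4a1, Zfp36 and Dusp1. All of them were found among the 32285 genes counted. The libraries hold LSK cells (lineage-negative, Sca-1-positive, c-Kit-positive), the bone marrow fraction that contains stem cells and early progenitors. There were 3 libraries labelled B4galt1 KO (genotype B4-/- on a mixed 129S1 and C57Bl/6 background) and 4 labelled WT, called here KO 1 to KO 3 and WT 1 to WT 4. B4galt1 encodes a galactosyltransferase that builds galactose ends on glycans. The labels give no age, sex, pooling or treatment, and nothing in them says whether replicates are separate mice, so p-values measure the spread between these libraries.

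Immediate early genes are transcribed within minutes of a stimulus, without new protein synthesis, from promoters read by serum response factor with its partners and by CREB and ATF proteins. Fos, Fosb, Jun, Junb and Atf3 encode basic leucine zipper proteins of or near the AP-1 family. Egr1 and Nr4a1 encode a zinc finger factor and an orphan nuclear receptor, Ier2 a small nuclear protein, Zfp36 an mRNA decay factor that shortens AU-rich messages, and Dusp1 a phosphatase that switches off MAP kinases. Tissue handling and enzyme digestion are known to induce the same genes, and in stem cells Junb and Egr1 are known as brakes on proliferation.

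Proximal promoters show letters that several members share. RefSeq promoters of GRCm38.p6 were matched for 8 members, all but Egr1 and Ier2. In the 250 bases upstream of the annotated start, TGACG (the core of the CREB and ATF site, sought on both strands) was present in 6 of these 8, against 17.8% of 32851 mouse promoters. Stretches around the matches are shown because the matched letters lie close to the start in most of them. Each is read 5′ to 3′ on the strand of the gene, from the RefSeq start, with the matched letters in capitals (CGTCA is TGACG on the other strand).
Fos, chr12:85473786-85473866, plus strand: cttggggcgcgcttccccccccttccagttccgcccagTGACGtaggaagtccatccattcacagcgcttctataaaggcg
Fosb, chr7:19310063-19310143, minus strand: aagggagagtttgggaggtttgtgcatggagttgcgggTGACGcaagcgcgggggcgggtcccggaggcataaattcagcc
Junb, chr8:84978812-84978892, minus strand: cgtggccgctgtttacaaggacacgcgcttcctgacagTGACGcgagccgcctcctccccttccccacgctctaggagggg
Atf3, chr1:191183334-191183378, minus strand: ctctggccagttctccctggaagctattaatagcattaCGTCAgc
Nr4a1, chr15:101266768-101266845, plus strand: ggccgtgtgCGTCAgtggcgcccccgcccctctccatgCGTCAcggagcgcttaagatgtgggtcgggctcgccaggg
Dusp1, chr17:26508570-26508650, minus strand: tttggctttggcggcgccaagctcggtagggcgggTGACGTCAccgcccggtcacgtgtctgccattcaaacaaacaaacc
The nearest match lay 61 bases before the start in Fos, 55 in Fosb, 35 in Nr4a1 and 2 in Atf3, and farther out in Junb (101) and Dusp1 (135). Of the 8 members searched, Dusp1 alone had the full palindrome TGACGTCA, which contains TGACG and was found in 1.55% of promoters. Among these 8, a CArG box, the site of serum response factor, was found in Zfp36 alone (1.47% of promoters). The AP-1 letters TGANTCA were found in none of them (6.75% of promoters). Promoters of Egr1 and Ier2, and bases beyond the 250, were not searched, so sites there would be missed. The letters were chosen after the promoters had been seen, so the excess over all promoters is no independent finding, and the matches describe letters in 1 window per gene.

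The 7 libraries held 36465 barcodes, of which 24430 cells were kept (at least 1000 UMIs and 500 genes, at most 10% mitochondrial UMIs), 1172 to 8862 per library. The opening bases of the cell barcodes divide the libraries into 2 barcode lists: list A (KO 1, KO 2, WT 1, WT 2, WT 3) and list B (KO 3, WT 4). In list A 32.4% to 49.9% of barcodes were kept, and ribosomal protein genes took 13.6% to 20.7% of UMIs. In list B 96.2% to 98.3% were kept, with 30.0% to 30.2% ribosomal UMIs. KO 3 and WT 4 share 88 full barcodes, and every other pair at most 7. Kit had a UMI in 67.4% to 88.4% of kept cells and Ly6a, which encodes Sca-1, in 15.1% to 34.4%. The targeted gene did not separate the labels: B4galt1 stood at 31.8 to 53.2 counts per 1000000 UMIs (CPM) in the KO libraries and 39.5 to 60.8 in the WT libraries. The deleted stretch is not given in the sources used here, so a 3′ tag may lie outside it, and group names below are those of the labels.

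Libraries differed far more in some of the 10 genes than in others. In sums over all kept cells, Jun stood at 1032, 1174 and 813 CPM in KO 1 to KO 3 and at 1127, 1133, 1302 and 1180 CPM in WT 1 to WT 4. The spread across libraries was narrow for Jun, with the highest library 1.6-fold above the lowest. It was wide for Fosb and Atf3, at 26.2-fold and 28-fold. Within list A alone these same ratios were 1.26 for Jun, 2.3 for Fosb and 2.89 for Atf3. By the kit that the labels name, UMIs were counted at the 3′ end. They are not divided by gene length, so levels of different genes are not compared. The genes lie on chromosome 12 (Fos, 85473890 to 85477273), 7 (Fosb, 19302696 to 19310051, and Zfp36, 28376784 to 28380253), 4 (Jun, 95049034 to 95052222), 8 (Junb, 84974484 to 84978718, and Ier2, 84661331 to 84662852), 18 (Egr1, 34859823 to 34864984), 1 (Atf3, 191170296 to 191218039), 15 (Nr4a1, 101254269 to 101274795) and 17 (Dusp1, 26505590 to 26562128) of GRCm38, and all are protein-coding.

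**Figure D1:**
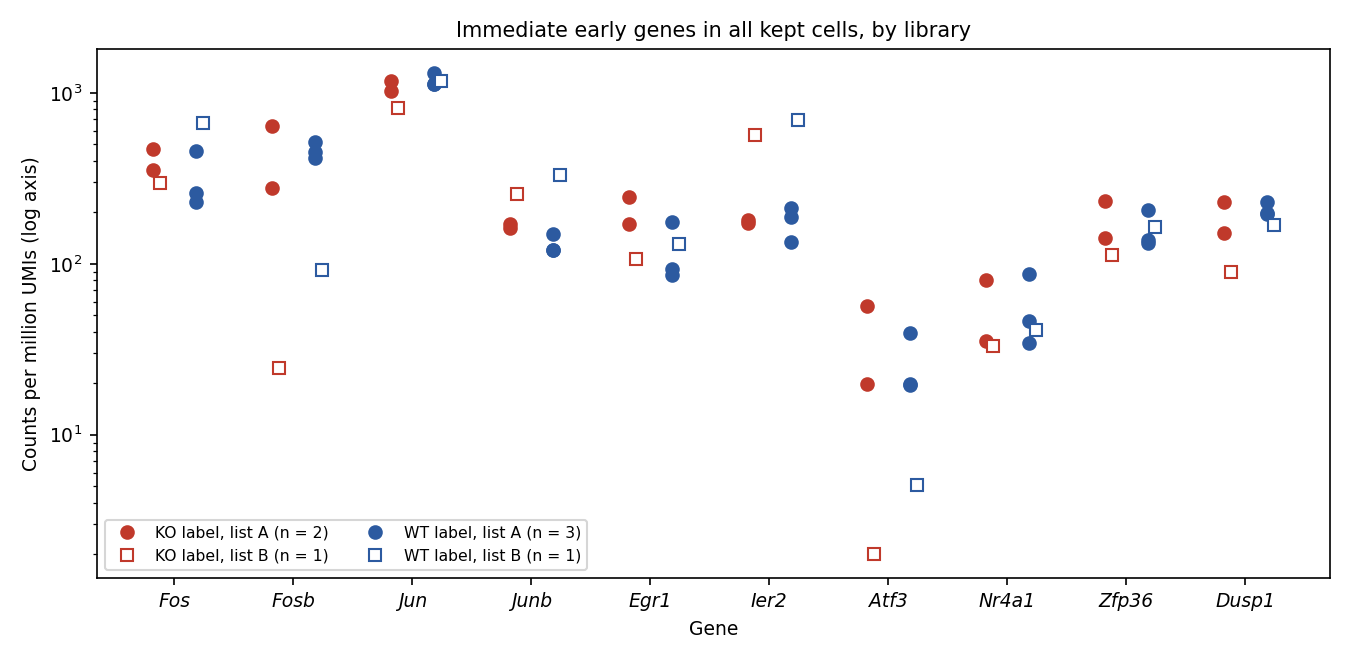
CPM of each gene (log axis) in sums over all kept cells, 1 point per library, coloured by label and shaped by barcode list. The open squares of list B lie apart from the filled circles for Fosb, Junb, Ier2 and Atf3, while the labels overlap for all 10 genes.

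Between the barcode lists, AP-1 members moved in both directions. Fosb was at 279, 641, 449, 416 and 519 CPM in the 5 list A libraries (KO 1, KO 2, WT 1, WT 2, WT 3) and at 24.5 and 92.3 in KO 3 and WT 4. It fell by 3.09 on the log2 scale in list B (SE 0.54, adjusted p = 0.00149, edgeR quasi-likelihood test with Benjamini-Hochberg adjustment over 14608 genes, with label as covariate). Atf3, a stress-induced repressor, was at 19.9, 56.4, 19.5, 19.8 and 39.1 CPM in the same list A libraries and stood at 2.01 and 5.07 in list B, a difference of -3.11 (SE 0.74, adjusted p = 0.0134 by edgeR). Ier2 went the other way. Its list A libraries stood at 180, 174, 187, 134 and 212 CPM, with 566 and 692 in list B, and the rise was 1.83 (SE 0.19, adjusted p = 6.25e-05 by edgeR). Junb rose by 1.01 (SE 0.18, adjusted p = 0.00105 by edgeR), from 172, 163, 121, 121 and 150 CPM in list A to 256 and 329. For these 4 genes no list A library reached the values of list B. Dusp1 fell by 0.65 (SE 0.23, adjusted p = 0.0308 by edgeR), with overlapping lists.

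Fos, Jun, Egr1, Nr4a1 and Zfp36 did not pass the test between lists. Fos, the partner of Jun in AP-1, lay at 231 to 469 CPM in list A and at 296 and 662 in list B. Thus 5 of 10 members were called, 2 higher and 3 lower. The lists differed in 62.2% of all genes tested (31.0% higher, 31.2% lower), and 64.8% of genes had lists that did not overlap, so the members' share was not above that of all genes. Among 36 other immediate early genes, 35 were tested, 5 were higher in list B (led by Klf6, Myc and Csrnp1) and 19 lower. Jund, the third Jun protein, fell by 3.62 (SE 0.22), from 320 to 499 CPM in list A to 25.2 and 38.6 in list B. Cebpb, a myeloid leucine zipper factor, fell by 4.76 (SE 0.34) and Btg1, an antiproliferative gene, by 2.12 (SE 0.18). Of 12 heat shock genes 1 rose and 3 fell, and of 18 kinases and factors upstream of the early genes 1 rose and 10 fell, among them Creb1 (-1.24, SE 0.16). Calls for Atf3 and Dusp1 were lost without KO 3 (adjusted p = 0.0612 and 0.481 by edgeR), and that for Dusp1 also without WT 3, while Fos was called without KO 3 (1.12, adjusted p = 0.0338). List B is 2 libraries, so the list and any other difference of those libraries cannot be told apart.

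Cell states were gated from marker UMIs in each cell. The stem gate needs 3 of 9 stem genes (such as Hlf, Mecom and Procr). The multipotent gate needs Flt3 without the stem gate, and the lymphoid gate Dntt at 2 UMIs or any 2 of Dntt, Il7r, Rag1 and Rag2. The granulocyte-monocyte gate needs 3 of Mpo, Elane, Prtn3, Ctsg and Ms4a3 at 2 UMIs or more and the monocyte gate 3 of 6 genes such as Irf8 and Csf1r. These gates held 10260, 2499, 3192, 1908 and 2055 cells. Counts were summed per library and gate, and each gate was set against the multipotent gate of the same library.

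As a share of all UMIs, most of the 10 genes were lower in both myeloid gates. In the granulocyte-monocyte gate 7 of 10 fell and none rose, against 11.9% of all genes called lower there and 29.6% called in either direction. In the monocyte gate 9 of 10 fell, all but Atf3, against 23.7% lower and 50.6% in either direction. The median log2 difference of the members was -0.50 and -0.73 in these gates, and that of all genes tested 0.00 and -0.01. In the lymphoid gate 0 of 10 passed the edgeR test (7.63% of all genes did; 2 members had an unadjusted p under 0.05), and in the stem gate 0 of 10 (8.63% of all genes; 1 member under 0.05). DESeq2 called 0 in both. Estimates were below 0 for 9 of 10 members in each of these gates, with medians of -0.15 and -0.14.

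Nr4a1 had the widest step. Its level ran from 38.7 to 189 CPM across the multipotent sums (median 52.6), from 19.1 to 57 in the granulocyte-monocyte gate (median 29.6) and from 15.4 to 78.7 in the monocyte gate (median 24). Each library was lower in both myeloid gates than in its own multipotent gate, and the fitted change was -1.05 (SE 0.19, 2.08-fold lower) and -1.44 (SE 0.20, 2.71-fold lower), with adjusted p = 8.35e-05 and 4.15e-07 by edgeR. The ranges of the gates overlap because libraries differ in their overall level, so the step shows within libraries.

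Junb followed, at a median of 261 CPM (range 126 to 384) in the multipotent gate, 151 (101 to 217) in the granulocyte-monocyte gate and 123 (81.8 to 180) in the monocyte gate. It fell by 0.69 (SE 0.15) and 0.89 (SE 0.15). Jun fell by 0.46 (SE 0.11) and 0.79 (SE 0.11) and was lower in 7 of 7 libraries in both gates. Fos fell by 0.53 (SE 0.15) and 0.60 (SE 0.15), and Egr1 by 0.63 (SE 0.23) and 0.74 (SE 0.24). Fos, Jun and Junb, which can pair in AP-1, thus lay in the same direction as Egr1 in both gates.

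The feedback genes fell too: Zfp36 by 0.60 (SE 0.12) and 0.72 (SE 0.13), and Dusp1 by 0.42 (SE 0.10) and 0.83 (SE 0.11). Fosb (-0.22, SE 0.15) and Ier2 (-0.36, SE 0.16) did not pass in the granulocyte-monocyte gate (adjusted p = 0.29 and 0.0824 by edgeR) and fell in the monocyte gate by 0.50 (SE 0.15) and 0.45 (SE 0.16). Atf3 passed in neither (-0.17 and -0.18). Egr1 is the least secure of the granulocyte-monocyte calls: it was lost when any of 5 of the 7 libraries was left out (KO 1, KO 2, KO 3, WT 1 or WT 4), with adjusted p up to 0.116 by edgeR. In the monocyte gate Ier2 was lost without KO 2 or KO 3 (adjusted p up to 0.0598 by edgeR), and with list A alone neither Egr1 nor Ier2 was called. The WT 3 monocyte sum, of 29 cells, lay above its multipotent sum for Fos, Junb, Egr1, Ier2, Atf3 and Zfp36.

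**Figure D2:**
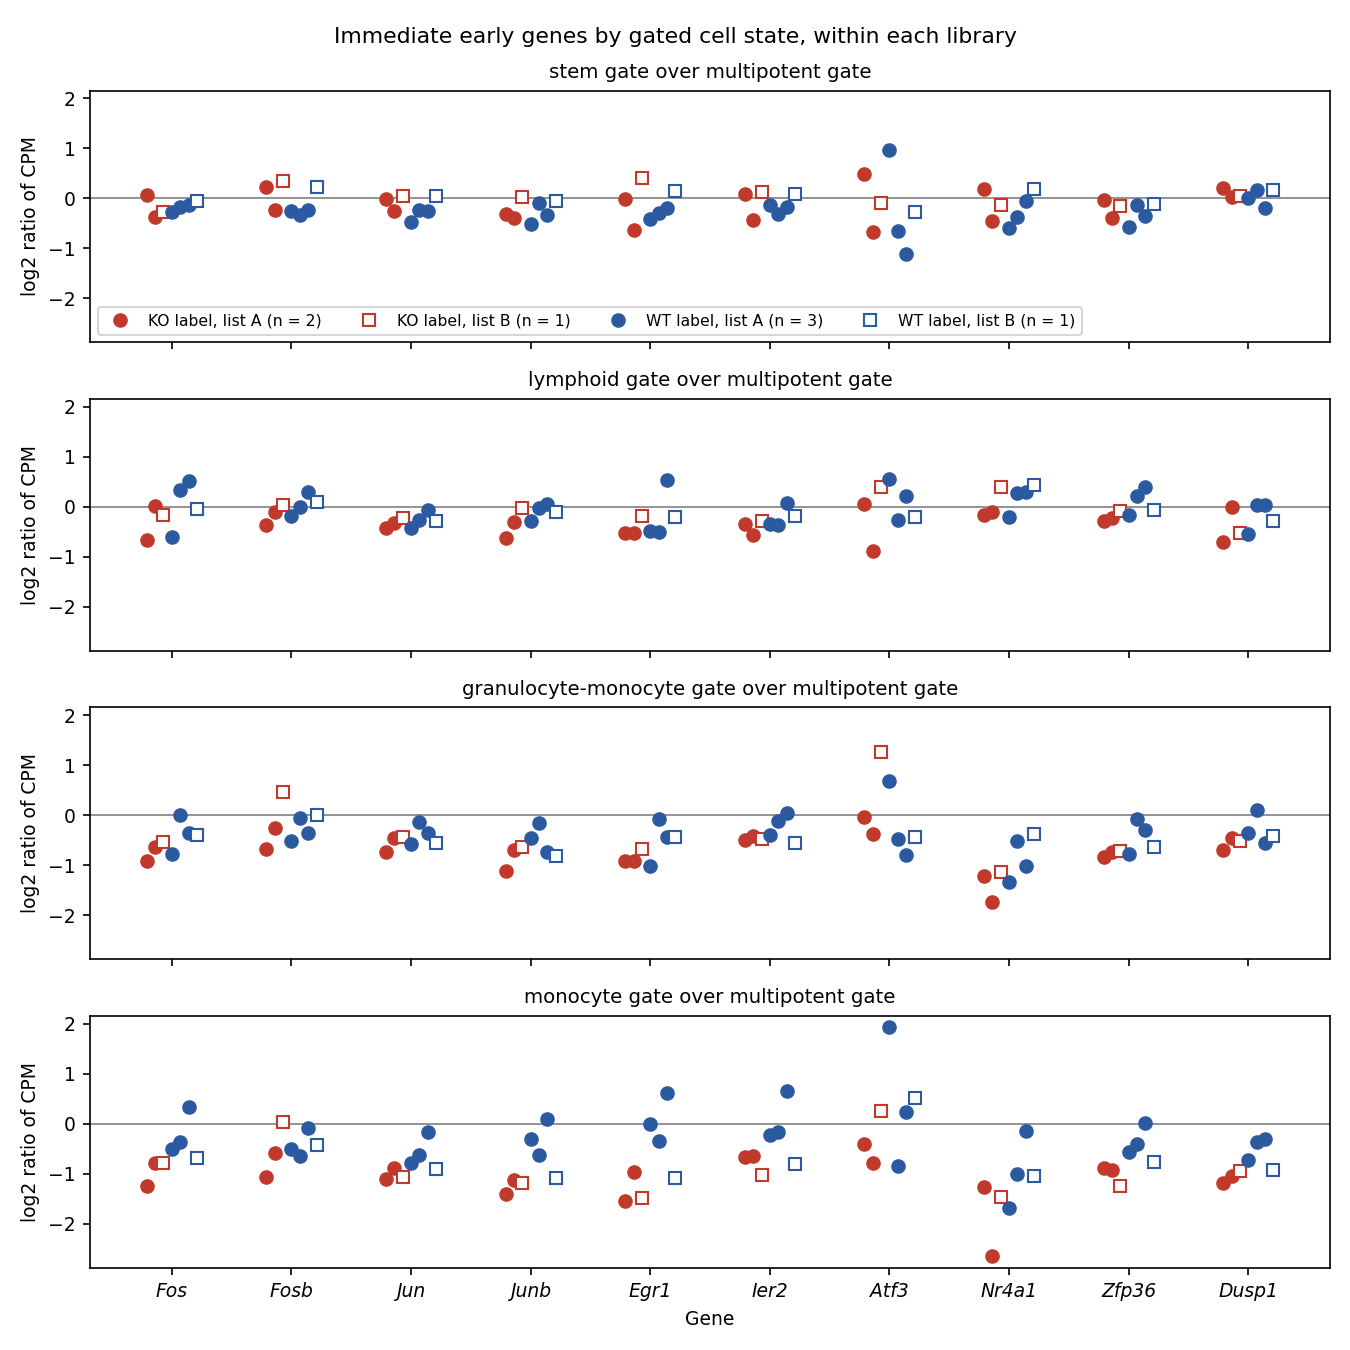
Log2 ratio of CPM in each gate to the multipotent gate of the same library, for 7 libraries per gene; the line at 0 is no difference. Points of Nr4a1, Junb, Jun and Zfp36 lie below 0 in the granulocyte-monocyte panel for all 7 libraries. In the stem and lymphoid panels medians over the genes are nearer 0, with Jun (lymphoid) and Zfp36 (stem) below it in 7 of 7.

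Counted per cell, the 10 genes together were not lower in most libraries, with Nr4a1 the main exception. Myeloid-gated cells had more UMIs. Median UMIs per cell ran from 10614 to 17327 in the granulocyte-monocyte gate and 13978 to 23043 in the monocyte gate, against 4704 to 8246 in the multipotent gate. The myeloid gates need 3 detected genes, which deeper cells meet more easily, and the part of gating in this difference was not tested. UMIs of the 10 genes summed per cell were 1.03 to 1.94 times those of the multipotent gate in the granulocyte-monocyte gate, lower in 0 of 7 libraries. In the monocyte gate they were 0.936 to 1.89 times, lower in 1 of 7. Nr4a1 was the member most often lower per cell, in 5 of 7 libraries in the granulocyte-monocyte gate (ratio 0.585 to 1.45). In the monocyte gate Nr4a1 and Egr1 were each lower per cell in 3 of 7. The tests above are of the share of a cell's UMIs. Cycling cells, with a UMI of at least 3 of 10 mitotic genes, made up 48% to 72% and 62.1% to 83.7% of these gates and 15.2% to 28.9% of the multipotent gate. Without cycling cells the granulocyte-monocyte gate had 6 members called lower, with Fos lost (-0.39, adjusted p = 0.0834 by edgeR). In that fit 871 of 12346 genes were called lower and 1927 in either direction.

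Other early genes moved with the members in these gates. Of 36, 22 fell and 2 rose in the granulocyte-monocyte gate, and 25 fell and 2 rose in the monocyte gate. Egr3, a relative of Egr1, fell by 1.65 (SE 0.25) and 2.26 (SE 0.25), and Dusp5, a nuclear MAP kinase phosphatase, by 0.88 (SE 0.13) and 1.41 (SE 0.14). The 2 that rose were Cebpb (0.61 and 1.33) and Cebpd (1.10 and 1.62), both transcription factors of myeloid differentiation. Heat shock genes went the other way: 9 of 12 rose in the granulocyte-monocyte gate, and 8 rose and 1 fell in the monocyte gate, where 17.7% and 26.9% of all genes rose. Hspa8, the constitutive Hsc70, rose by 0.45 (SE 0.10) and 0.71 (SE 0.10), and Hspa1b by 1.47 (SE 0.29) and 2.37 (SE 0.27), though reads of Hspa1b and its near-identical copy Hspa1a may be shared. Of the 18 upstream genes, 1 rose and 3 fell in the granulocyte-monocyte gate, where 17.7% of all genes rose and 11.9% fell. In the monocyte gate 3 rose and 7 fell, against 26.9% and 23.7% of all genes.

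Megakaryocyte, erythroid and basophil-mast gates had 20 or more cells in KO 3 and WT 4 alone, so no test was made. In the erythroid gate Zfp36 stood at 38.7 and 48.8 CPM and Junb at 95.8 and 115, log2 ratios to the multipotent gate of -1.96 and -1.99 for Zfp36 and -1.71 and -1.74 for Junb. In the basophil-mast gate Fosb stood at 73.6 and 194 CPM, log2 ratios of 1.97 and 1.25, and Fos at 416 and 845. Both list B libraries thus had low values of Zfp36 and Junb in erythroid-gated cells and high values of Fosb in basophil-mast-gated cells.

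Within the stem gate, cycling cells had lower shares of all 10 genes than non-cycling cells of the same library. All 10 members fell (median -0.67), against 27.9% of 11452 genes called lower and 52.6% called in either direction. This test was added after the gate values had been seen. Zfp36 stood at 154 to 353 CPM in non-cycling cells and 72.7 to 222 in cycling cells, a fall of 0.83 (SE 0.06, adjusted p = 9.99e-12 by edgeR). Ier2 fell by 0.84 (SE 0.06), Junb by 0.92 (SE 0.09), Dusp1 by 0.71 (SE 0.05), Egr1 by 0.64 (SE 0.07) and Fos by 0.60 (SE 0.11). Jun fell by 0.53 (SE 0.04), Nr4a1 by 0.49 (SE 0.09) and Fosb by 0.45 (SE 0.05), and Atf3 by 1.06 (SE 0.24). There were 8 members lower in cycling cells in 7 of 7 libraries, and Atf3 and Nr4a1 in 6 of 7.

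Per cell the picture again differed. Cycling stem-gated cells had median UMI counts of 8871 to 16080 against 4874 to 8430 in non-cycling ones. Summed member UMIs per cycling cell were 0.903 to 1.39 times those per non-cycling cell (median 1.15), lower in 1 of 7 libraries. Of single genes, Fosb and Jun had lower values per cell in 0 of 7 libraries and Atf3 in 4 of 7.

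Tested as shares of UMIs again, other early genes fell in 29 of 34 tested and rose in none, led by Nfkbiz (-1.04, SE 0.06), Rhob (-1.07, SE 0.08) and Btg1 (-0.67, SE 0.05). Heat shock genes rose in 7 of 11 tested, led by Hsp90aa1 (0.47, SE 0.04), and fell in 2, where 24.7% of all genes rose.

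**Figure D3:**
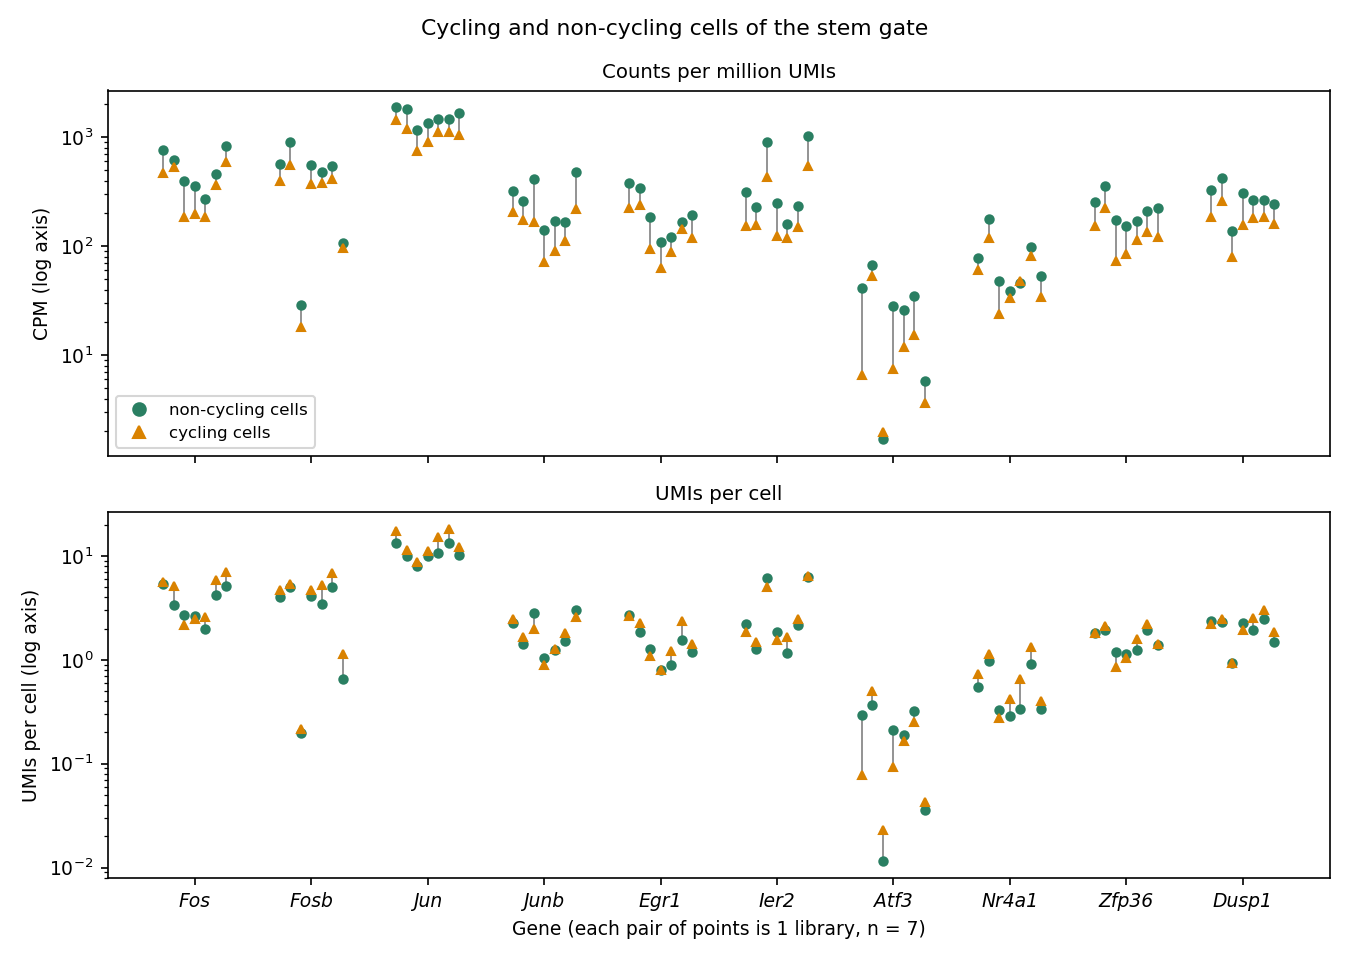
Cycling (triangles) and non-cycling (circles) cells of the stem gate, 1 joined pair per library in the order KO 1 to KO 3, WT 1 to WT 4, on log axes. In CPM (upper panel) the triangles lie below the circles in 7 of 7 libraries for 8 genes; in UMIs per cell (lower panel) they lie near or above the circles for most.

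Between the labels, sums over all kept cells showed no called member. The edgeR test passed 0 of 10, none with an unadjusted p under 0.05 and none by DESeq2, while 1.11% of all genes passed. Log2 differences (KO minus WT, barcode list as covariate) ran from -0.52 for Fosb (SE 0.41) to 0.50 for Egr1 (SE 0.31), with a median of -0.06. Egr1 stood at 172, 245 and 107 CPM in the KO libraries and at 86, 92.8, 176 and 131 in the WT libraries, and these overlap. Within list A, Junb was the 1 member whose KO libraries (172 and 163 CPM) lay above all WT libraries (121, 121 and 150), and 18.0% of all genes did so. Cell mixtures differ between the labels: the monocyte gate took 25.9% to 27.1% of cells in KO 1 and KO 2 and 1.93% to 5.71% in WT 1 to WT 3. In sums, fewer cells of a type and less RNA per cell cannot be told apart.

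In CPM, list A libraries showed a gap between the labels in the stem gate for most members. There Egr1 was at 342 and 307 CPM in KO 1 and KO 2, against 92, 107 and 159 in WT 1 to WT 3, and at 161 in KO 3 against 169 in WT 4. Fos was at 695 and 590 against 299, 234 and 426, and then at 337 against 758 in list B. Junb was at 296 and 231 against 115, 135 and 147, with 346 against 399 in list B. In list A both KO libraries lay above all 3 WT libraries for 9 members, all but Nr4a1, which 9.59% of all genes did. Counted in UMIs per stem-gated cell, the same held for 1 member, Egr1, at 2.68 and 1.95 UMIs against 0.802, 0.991 and 1.73. The share of all genes that did so in UMIs per cell was not computed, so this count has no background. The 10 genes summed to 35.8 and 29.5 UMIs per cell in KO 1 and KO 2 and to 24.6, 25.9 and 36 in WT 1 to WT 3, which overlap, and Jun stood at 14 and 10.2 against 10.3, 12.1 and 14.6. Median UMIs per stem-gated cell were 6895 and 5344 in these KO libraries and 7253, 7270 and 9387 in these WT libraries, without overlap. In list B, KO 3 lay below WT 4 for all 10 members, by log2 ratios from -0.07 (Egr1) to -1.98 (Fosb). In CPM, 9 members thus had both KO libraries above all WT libraries in list A and KO 3 below WT 4, as had 3.99% of all genes.

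The test over all 7 libraries passed 0 of 10 members in the stem gate (0.0921% of genes passed), with Egr1 at 1.01 (SE 0.29, unadjusted p = 0.00578, adjusted p = 0.448 by edgeR) and Junb at 0.65 (SE 0.21, adjusted p = 0.578 by edgeR). It passed 0 in the multipotent gate (0.262% of genes; 2 members with an unadjusted p under 0.05) and 0 in the granulocyte-monocyte gate (0.0734% of genes; 0 members under 0.05). DESeq2 called Egr1 in the stem gate and no member in the other gates. With list A alone Egr1 was called in the stem gate (1.43, adjusted p = 0.0246 by edgeR) and in the multipotent gate (1.49, adjusted p = 0.0072 by edgeR). The calls made without KO 3 or without WT 4 add nothing to this. Those fits keep 1 list B library, which the list covariate takes up, so their label difference comes from list A. In the multipotent gate both KO libraries of list A lay above the 3 WT libraries for 6 members (9.13% of genes): Fos, Jun, Junb, Egr1, Ier2 and Zfp36. Egr1 there stood at 343 and 475 CPM against 122, 129 and 180. In the granulocyte-monocyte gate this held for 2 members, Junb and Egr1 (10.6% of genes). In UMIs per cell it held for Egr1 alone among the 10 in each of these gates, and the share of all genes was not computed.

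**Figure D4:**
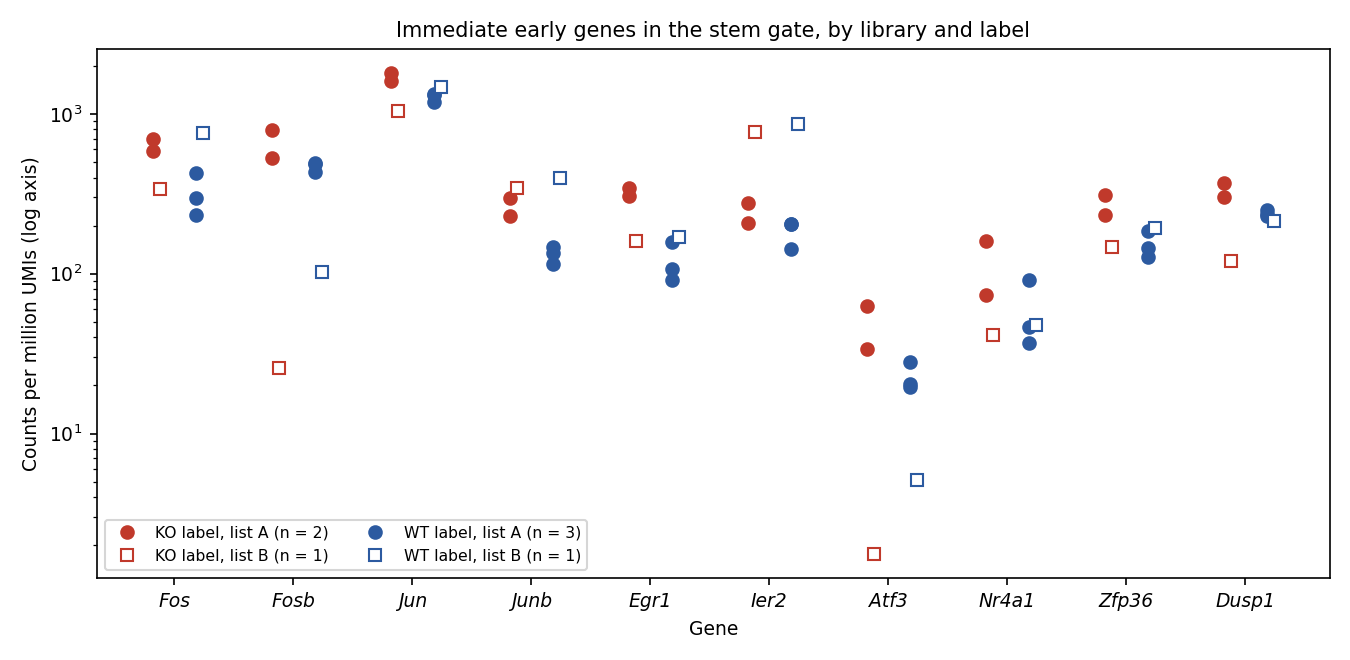
CPM in the stem gate (log axis), 1 point per library, KO left and WT right of each gene, filled for list A and open for list B. Filled red points lie above the filled blue points for 9 genes, all but Nr4a1, and the open red point lies below the open blue point for all 10; these are shares of UMIs, not UMIs per cell.

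Whether the label difference differs between lists was tested as an interaction, in which list B contributes 1 library per label. None of the 10 members passed in the summed cells (0.0137% of genes passed; 2 members with an unadjusted p under 0.05, none by DESeq2), in the stem gate (0.0154%; 7 members) or in the multipotent gate (0.0202%; 6 members). The latter pair of tests was added after the values were seen. All 10 interaction estimates were below 0 in each of the 3 fits, with medians of -0.77, -1.27 and -1.20. In the stem gate the largest were Atf3 (-2.58, SE 0.52), Fosb (-2.47, SE 0.43, adjusted p = 0.156 by edgeR) and Fos (-2.18, SE 0.48). DESeq2 called these 3 genes in the stem gate, and Fosb in the multipotent gate.

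Other properties of the stem-gated cells also differed between labels in list A. Cycling cells made up 14.6% and 21.6% of the gate in KO 1 and KO 2 and 22.4% to 29.3% in WT 1 to WT 3. In non-cycling cells alone, 8 members still had both KO libraries above the WT libraries (8.90% of genes), and Egr1 differed by 1.42 with list A alone (adjusted p = 0.0135 by edgeR). Summed granulocyte-monocyte gate genes stood at 604 CPM in both KO libraries and at 300 to 378 in the WT libraries, and hemoglobin genes at 79.4 to 156 against 25.8 to 43.9. The part of these transcripts in the result was not tested. Macrophage markers summed to 0.284 to 2.57 CPM in the stem gate. Median mitochondrial shares overlapped, at 3.64% and 4.97% against 4.1% to 4.57%.

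Of the other early genes, Socs3, the feedback inhibitor of cytokine receptors, was the 1 called between labels. In the stem gate it stood at 56.5, 58.3 and 23.2 CPM in the KO libraries and 10.6 to 15.4 in the WT libraries, without overlap, a rise of 1.74 (SE 0.17, adjusted p = 0.000947 by edgeR). It was called in the summed cells, the multipotent gate and the granulocyte-monocyte gate as well (1.21, 1.79 and 1.29). No heat shock or upstream gene was called between labels in any of these 4 fits.

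Several of the 10 genes were often detected in the same cell, but rarely all of them. Cells were thinned to 3000 UMIs each, leaving out 45 to 169 shallower cells per library. At least 5 of the 10 genes then had a UMI in 22.4% (KO 3) to 57.1% (KO 2) of cells, and none had one in 3.99% (WT 4) to 8.86% (KO 1). The median cell had 3 (KO 3) to 5 (KO 2) of them, and all 10 were found in at most 0.832% of cells (KO 2). These shares were not set against those that the detection rates of the single genes would give. Unthinned, 65.5% to 79.1% of cells had 5 or more. Within thinned stem-gated cells, 5 or more were detected in 60.3% and 63.1% of KO 1 and KO 2, 36.2% to 39.5% of WT 1 to WT 3, 27.5% of KO 3 and 48.1% of WT 4. KO 3 lay lowest and the KO libraries of list A highest. Even neutrophil-gated cells, counted in the 3 libraries with at least 20 of them, held 15.9 to 19.9 UMIs of the 10 genes per cell, against 28.3 to 42.5 over all kept cells of those libraries. No gate was empty of the 10 genes summed, though Atf3 alone had no UMI in the basophil-mast gate of KO 3 and WT 4. A level of free RNA was thus not read from a negative cell type, and its part was not tested.

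**Figure D5:**
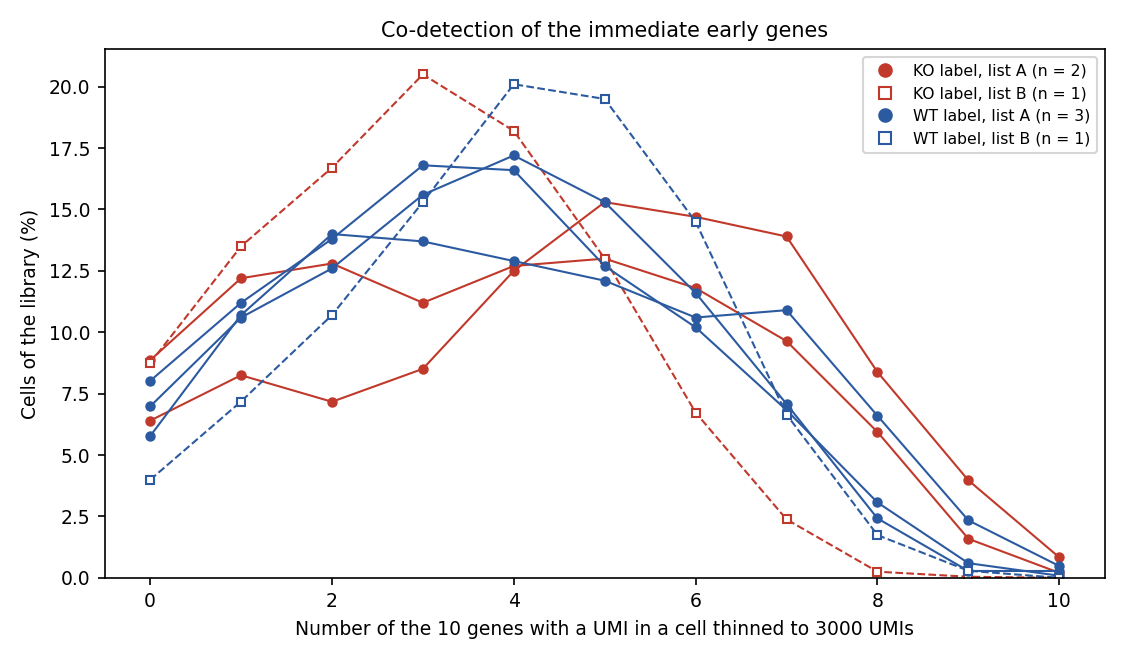
Percent of thinned cells in which 0 to 10 of the genes had a UMI, 1 line per library. KO 3 peaks at 3 genes (20.5% of cells), and KO 2 holds the largest share of cells with 5 or more (57.1%).

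Across cells, every pair of members was positively correlated in the median library. Pearson's r of log(1 + counts per 10000) had medians over 7 libraries from 0.14 (Atf3 with Nr4a1) to 0.62 (Fosb with Jun) over 45 pairs, and Fos reached 0.52 with Fosb and 0.51 with Jun. Single libraries ranged from 0.01 to 0.26 for Atf3 with Nr4a1 and from 0.18 to 0.66 for Fosb with Jun. For Fos they ranged from 0.28 to 0.63 with Fosb and from 0.41 to 0.60 with Jun. Cells of a library share its preparation and vary in depth, so these values describe the libraries. Of 9407 other genes, those closest to the summed members included Jund (median r 0.56, range 0.17 to 0.67), Neat1 (0.51), Tex14 (0.45), Btg2 (0.44), Btg1 (0.44), H3f3b (0.40), Dennd4a (0.39), Dusp2 (0.38) and Ppp1r15a (0.36). Jund, Btg2, Btg1, Dusp2 and Ppp1r15a were on the list of other early genes. At the opposite end, singled out after seeing the values, were Top2a (-0.29), H2afz (-0.28), Smc2 (-0.27), Mki67 (-0.25) and Cks1b (-0.25), which take part in chromosome structure and the cell cycle.

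Barcodes over the mitochondrial limit also carried these transcripts. In list A, where 15.6% to 29.1% of barcodes were over it, Fosb, Jun, Egr1 and Nr4a1 were higher there than in kept cells in 5 of 5 libraries, Fosb by 1.39 to 2.21 times (1250 against 565 CPM in WT 3). Junb and Atf3 were higher there in 4 of 5, Fos, Zfp36 and Dusp1 in 2 of 5 and Ier2 in 1 of 5. In list B, where 0.689% and 1.88% were over it, all 10 genes were lower than in kept cells in both libraries. These were 48 barcodes in KO 3 and 173 in WT 4, with medians of 2357 and 1549 UMIs. So few UMIs leave rare genes near the floor: Atf3 stood at 0 CPM in both libraries and Fosb at 0 in KO 3. The share of all genes higher or lower over the limit was not computed for either list. Counting used gene models whose strand setting is not given in the sources used here. Junb overlaps Prdx2, Jun overlaps Junos, Zfp36 overlaps Gm44710 and Dusp1 overlaps Ergic1, each on the other strand, so reads of these pairs may not be separated. Dusp1 also overlaps AC122252.1 on its own strand, where strand cannot separate the reads. AC122252.1 was not among the genes tested.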

How the data were processed

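For 7 libraries the deposited matrices hold whole UMI counts of each gene in each barcode. Headers of these files name Cell Ranger 7.0.0. The submitters' processing notes also name mm10 and Seurat 4.4.0, and the labels a Single Cell 3′ v2 kit. The labels name no other kit. Why the barcodes form separate lists A and B is not given in the sources used here, so the kit of each list is not settled. Barcodes with at least 1000 UMIs, 500 genes and at most 10% mitochondrial UMIs were kept. Doublets were not called; leaving out the 5% of cells with most UMIs was an alternative. Counts were summed per library, and per library and gate with at least 20 cells, and tested with edgeR 4.0.16 (R 4.3.3; TMM, filterByExpr, robust quasi-likelihood, two-sided, Benjamini-Hochberg over all genes tested, threshold 0.05), with barcode list as covariate or library as block. DESeq2 1.42.0 was an alternative. CPM are counts per 1000000 UMIs after TMM scaling, computed anew for each set of sums, so CPM of a gate are compared within 1 set. Scripts were tested on simulated data. Totals ran from 14970791 to 89747946 UMIs per library. Named genes are the members, the 3 smallest p in each direction per other list, and the 10 genes most correlated with the members; some are not reported here. Interaction tests within gates, the cycling test and the non-cycling alternatives were added after seeing the data. Members, lists, gates and tests were chosen with earlier results of these data known, and motif letters after seeing promoters. Coordinates are those of GRCm38.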

Additional observations from a re-analysis of the deposited data

Results flagged for a closer look

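One WT library stood apart from the other 3 in 9 of 40 checks of a gene in a set of cells (10 genes in summed cells and 3 gates). The other 3 are of list A, and the lists differed in 62.2% of all genes tested in summed cells. The summed cells also contain the gates, so the count cannot be set against a chance rate. The share of all genes marked in this way was not computed. In all 9 it was WT 4, the WT library of list B. Junb there stood at 329 CPM in summed cells (others 121 to 150), 399 in the stem gate (115 to 147), 414 in the multipotent gate (142 to 185) and 217 in the granulocyte-monocyte gate (101 to 115). Ier2 stood at 692 CPM in summed cells (others 134 to 212), 870 in the stem gate (142 to 205) and 825 in the multipotent gate (174 to 233). Fosb was low, at 102 CPM in the stem gate (others 434 to 495) and 87.8 in the multipotent gate (542 to 579).

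In CPM, for 9 members both KO libraries of list A lay above its WT libraries in the stem gate and the KO library of list B below its WT library. The interaction estimates (log2) were -2.18 for Fos, -2.47 for Fosb, -0.90 for Jun, -1.20 for Junb, -1.51 for Egr1, -0.57 for Ier2, -2.58 for Atf3, -1.22 for Zfp36 and -1.31 for Dusp1, and none passed the adjusted edgeR test. The same pattern held for 6 members in the multipotent gate and 1 in summed cells. Its share over all genes was counted in the stem gate alone (3.99%). The list A part by itself held for 9.13% of all genes in the multipotent gate and 18.0% in summed cells.

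Among heat shock genes, Hspa1a passed the interaction test in summed cells (-6.72), the stem gate (-5.23) and the multipotent gate (-7.39). Its summed level was 30.9 and 24.9 CPM in KO 1 and KO 2, 10.1, 11.1 and 6.9 in WT 1 to WT 3, 0.985 in KO 3 and 34.8 in WT 4. Reads of Hspa1a and its near-identical copy Hspa1b cannot be told apart with certainty.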

How the results depend on the processing

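No member was called between labels in summed cells under any of 17 alternatives, including the fit with replicate block in place of the list (0 members, 1 gene). Whether the labels' numbers pair the libraries was not settled. Deviations from label means correlated at 0.53 (KO 1 with WT 1), 0.72 (KO 2 with WT 2) and -0.36 (KO 3 with WT 3). KO 1 and KO 2 each correlated best with the WT library of the same number, and KO 3 with WT 4 (0.89), also of list B. The label means mix both lists, so this check cannot tell pairing from the list split. In the stem gate 0 members became 1 with DESeq2, 3 with no gene filter, 1 with list A alone, 1 in non-cycling cells of list A, and 0 to 1 leaving out 1 library; in the multipotent gate 0 became 1 with no gene filter or list A alone and 0 to 1 leaving out 1 library. Interaction counts of 0 became 1 with no gene filter in summed cells, 3 (no gene filter) and 3 (DESeq2) in the stem gate, and 3 and 1 in the multipotent gate. The lymphoid count became 1 with no gene filter (Jun) or thinned cells (Jun) and 0 to 1 leaving out 1 library (Dusp1, without WT 3).

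Counts of members called kept within 1.5 times for the lists (4 to 5), the granulocyte-monocyte gate (6 to 8), the monocyte gate (7 to 9) and cycling cells (10). The contrasts of megakaryocyte, erythroid and basophil-mast gates were not run, with 2 libraries of 20 cells each. Gates with 1 more gene left too few libraries for the granulocyte-monocyte contrast, and leaving out cycling cells too few for the monocyte contrast. Counts of all genes called moved from 162 between labels to 856 (DESeq2), 547 (no filter), 362 (list A alone), 100 (thinned), 0 (no list covariate) and 16 to 349 (1 library left out). In the same order of DESeq2, no filter, list A alone and no list covariate they moved from 12 to 67, 219, 33 and 0, with 30 (non-cycling list A) and 3 to 43 (1 library left out) in the stem gate, from 26 to 98 (no filter), 9 (list A alone), 72 (stricter gate), 0 (no list covariate) and 11 to 46 in the multipotent gate, and from 8 to 22, 123, 20 and 0, with 2 to 19, in the granulocyte-monocyte gate. Interaction counts of 2 moved with no filter and with DESeq2 to 71 and 15 (summed cells), 44 and 9 (stem gate) and 18 and 3 (multipotent gate). State contrasts moved from 4407 to 2603 (thinned) and 1927 (no cycling cells) in the granulocyte-monocyte gate, from 7532 to 5017 (thinned) in the monocyte gate, from 1137 to 549 (list A alone) in the lymphoid gate and from 1286 to 424 (list A alone), 2361 (stricter gate) and 695 to 1412 (1 library left out) in the stem gate, and the lists from 9091 to 5612 without WT 4.

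Values that changed sign belonged to genes not called in that comparison, and the cause was not tested. Between labels in summed cells, Fos was 0.10 (thinned), 0.35 (list A) and 0.28 (replicate block); Ier2 0.002 (no list covariate) and 0.58 (block); Atf3 -0.02 (other library size), -0.03 (5% mitochondrial limit) and -0.63 (block); Nr4a1 0.16 (thinned) and 0.01 (list A); Zfp36 -0.06 (other library size), -0.04 (5% limit) and -0.002 (block). Fosb in the stem gate was 0.24 (no list covariate), 0.47 (list A) and 0.48 (non-cycling list A). Between gates, without cycling cells Atf3 was 0.25 (granulocyte-monocyte), Fos 0.04, Fosb 0.05, Atf3 0.15 and Zfp36 0.14 (lymphoid) and Fosb 0.04 (stem). With stricter gates Zfp36 was 0.01 (lymphoid), Egr1 0.04 and Nr4a1 0.03 (stem); Nr4a1 was -0.01 with list A (lymphoid), Ier2 0.001 when thinned (stem) and Atf3 0.04 without the 5% of cells with most UMIs (monocyte). Leaving out 1 library gave, between labels, Fos -0.33 to 0.36, Atf3 -0.72 to 0.50, Nr4a1 -0.52 to 0.24 and Zfp36 -0.31 to 0.22; between lists, Fos -0.39 to 1.12, Jun -0.35 to 0.05, Egr1 -0.87 to 0.21 and Zfp36 -0.63 to 0.11; in the stem gate, Fosb -0.59 to 0.49, Atf3 -0.08 to 1.06 and Dusp1 -0.12 to 0.49; and between gates, Fos -0.19 to 0.01, Fosb -0.10 to 0.04, Atf3 -0.23 to 0.06 and Zfp36 -0.11 to 0.01 (lymphoid), Atf3 -0.41 to 0.04 (monocyte) and Fosb -0.10 to 0.02 (stem).

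Depth limits Atf3 most, at 0.0203 to 0.59 UMIs per cell.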
